A study of Rattus norvegicus with 14 samples.

Results

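The genes described here are 8 members of the fibroblast growth factor (FGF) system, namely the receptor genes Fgfr1, Fgfr2, Fgfr3, Fgfr4 and Fgfrl1 and the ligand genes Fgf1, Fgf2 and Fgf21. They were taken by name from a table of 16816 gene symbols, and all 8 have a row in it. RNA-seq was performed on PCCL3 cells, a line of rat thyroid follicular cells, that had been stably transfected with PPFP or with the empty vector (PPFP cells and EV cells). PPFP is the human PAX8-PPARG fusion protein of follicular thyroid carcinoma, here with a Myc tag. Pioglitazone, which activates PPARG, was given to each line at 1 μM for 16 hours, with DMSO alone as the vehicle, which gave 4 groups of 3 libraries (EV-Pio, EV+Pio, PPFP-Pio and PPFP+Pio). Whether these lines are clones or pools, and which promoter drives PPFP, is not given in the sources used here. All PPFP values come from 1 line and all EV values from another, so a difference between the lines cannot be told apart from a difference between these particular transfectants. The libraries of a group came from separate experiments, and the p values measure the spread between them.

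FGFs are secreted proteins that bind, together with heparan sulfate, to receptor tyrosine kinases at the cell surface and signal through the adaptor Frs2 to the MAPK cascade. Fgfr1, Fgfr2, Fgfr3 and Fgfr4 encode the kinases, and Fgfrl1 encodes a receptor that lacks the kinase domain. In epithelia the IIIb splice form of Fgfr2 receives Fgf7 and Fgf10 from the mesenchyme, and Fgf10 and Fgfr2 are required for the thyroid to form in the embryo. Fgf1 is a ligand of all the FGF receptors. Fgf21 circulates as a hormone, needs the co-receptor Klb, and is a known target of PPAR factors in liver and fat. Read counts per gene do not separate the IIIb and IIIc splice forms of a receptor.

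The level of Fgfr1, Fgfr2, Fgfr3 and Fgfrl1 was lower in PPFP than in EV cells, and that of Fgf1 was higher, with and without pioglitazone. Pioglitazone lowered Fgfr1 and Fgfr2 in PPFP cells. Fgf21 was near 0 in EV cells and reached 22.4 CPM (counts per 1e6 counts, scaled) in PPFP cells with pioglitazone, where the 3 libraries differed widely. Fgfr4 and Fgf2 were hardly read.

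The sequences before the gene starts are shown for the 3 receptor genes that fell together and were found in the RefSeq promoter table, and for Fgf21, the ligand that was read mainly in PPFP cells with pioglitazone. The table is of the GRCr8 build, whereas the reads were aligned to rn4, and 7 of the 8 members were matched in it by symbol (not Fgfr1). Each sequence holds the 250 bases before the annotated start in the direction of transcription, and capitals mark the motifs that were found. Fgfr2 is at chr1:194280915-194281164, minus strand. Fgfr3 is at chr14:81227210-81227459, minus strand. Fgfrl1 is at chr14:1166335-1166584, minus strand. Fgf21 is at chr1:105221377-105221626, minus strand.
Fgfr2: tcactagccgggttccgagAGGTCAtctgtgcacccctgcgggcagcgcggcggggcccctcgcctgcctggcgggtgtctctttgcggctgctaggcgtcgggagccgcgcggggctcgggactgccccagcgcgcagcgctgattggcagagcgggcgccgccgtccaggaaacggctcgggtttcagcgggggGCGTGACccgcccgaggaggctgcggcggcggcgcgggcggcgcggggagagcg
Fgfr3: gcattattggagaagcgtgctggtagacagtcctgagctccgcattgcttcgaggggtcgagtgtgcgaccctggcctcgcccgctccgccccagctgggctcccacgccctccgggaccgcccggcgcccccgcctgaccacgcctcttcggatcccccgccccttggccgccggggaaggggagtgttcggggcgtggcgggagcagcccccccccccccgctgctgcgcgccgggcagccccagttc
Fgfrl1: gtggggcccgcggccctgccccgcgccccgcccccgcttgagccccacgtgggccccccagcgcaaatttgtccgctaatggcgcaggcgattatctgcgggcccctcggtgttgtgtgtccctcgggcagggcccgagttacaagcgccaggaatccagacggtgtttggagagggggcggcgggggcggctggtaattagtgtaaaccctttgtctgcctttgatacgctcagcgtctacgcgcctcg
Fgf21: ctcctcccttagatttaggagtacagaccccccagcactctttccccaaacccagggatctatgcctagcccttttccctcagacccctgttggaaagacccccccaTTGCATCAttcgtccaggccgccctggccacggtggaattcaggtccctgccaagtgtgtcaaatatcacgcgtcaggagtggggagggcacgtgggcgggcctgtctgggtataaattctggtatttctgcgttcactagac

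Both strands were searched for AGGTCA, the half-site of nuclear receptors, for its direct repeat with 1 base between, AGGTCANAGGTCA, which PPARG binds with its partner RXR, for GTCACGC, a core of paired domain sites such as those of PAX8, and for TTGCATCA, an element bound by C/EBP and ATF factors. The direct repeat contains the half-site. Of the 33469 windows of this length in the table, 14.1% hold the half-site, 0.0508% the direct repeat, 1.74% the paired domain core and 0.693% the C/EBP-ATF element. The Fgfr2 window holds AGGTCA at 231 to 226 bases before the start and GCGTGAC, the reverse complement of the paired domain core, at 54 to 48 bases before it. The Fgf21 window holds TTGCATCA at 143 to 136 bases before the start. In the Fgfr3 and Fgfrl1 windows none of these 4 strings was found. Of the members not printed, Fgfr4 has an AGGTCA at 196 to 191 bases before its start, and no match was found for Fgf1 and Fgf2. A match is a string of letters in this window, and binding was not measured by it.

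Each library held 23724703 to 35240176 counts on genes. Pparg, whose reads can come from the endogenous gene and from PPFP, was at 1.60 ± 0.347 CPM in EV-Pio and 54.1 ± 6.82 CPM in PPFP-Pio (SD, n = 3), which differed by 5.08 ± 0.19 on the log2 scale (SE, edgeR adjusted p = 3.63e-06), in the direction of the labels. Pax8, of which the same holds, was at 734 ± 56.3 and 694 ± 16.6 CPM (adjusted p = 0.469). All 8 thyroid marker genes were read in every library and their summed level was between 10420 and 14662 CPM in EV cells and between 10021 and 14354 CPM in PPFP cells. In PPFP-Pio against EV-Pio 5 of the 8 were called lower (among them Foxe1 -2.72, Slc5a5 -1.73, Hhex -0.99 and Nkx2-1 -0.58 on the log2 scale) and Tshr was called higher (0.66). Over all genes 23.1% were called lower and 22.0% higher in that comparison. With pioglitazone in PPFP cells 5 of the 8 were called lower (7.13% of all genes), and 8 of 8 when same-numbered libraries were paired in a replicate block (23.9% of all genes). Of 8 fibroblast and mesenchymal markers 2 were tested, and the summed level of the 8 was between 22.3 and 24.3 CPM in EV cells and between 20.4 and 34.5 CPM in PPFP cells, and of the 2 tested Pdgfra was called higher in PPFP+Pio than in EV+Pio (0.46, adjusted p = 0.0143). With pioglitazone in PPFP cells neither was called, and with the block Pdgfra was called higher (0.25 ± 0.058, adjusted p = 0.000994) and Col1a1 lower (-0.53 ± 0.16, adjusted p = 0.00857). Col3a1, Dcn and Lum were at 0 counts in all libraries. The 3 endothelial markers in the table summed to at most 0.201 CPM, with Cdh5 at 0 counts. The part of these shifts in the FGF results was not tested. In a principal component analysis the first component (83.9% of the variance) separated the cell lines, and on the second (6.14%) the number 1 libraries of PPFP cells stood apart from the others of that line, at 20.5 and 22.8 against -17.1 to -8.14. Library number 3 of EV cells stood apart in the same way, at 23.9 without and 22.4 with pioglitazone.

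Fgfr2, the receptor of mesenchymal ligands in epithelia, had 116949 counts over the 12 libraries. In EV-Pio it was at 464, 539.5 and 422 CPM and in PPFP-Pio at 222, 210.1 and 208 CPM, where CPM are scaled with TMM factors. Every PPFP library was below every EV library. The share of all genes whose groups separate in this way, here and for the genes below, was not computed. The group means were 475 ± 59.5 and 213 ± 7.47 CPM (SD, n = 3), and the log2 fold change was -1.16 ± 0.11 (SE, adjusted p = 0.000134). Unless another test is named, adjusted p values come from the quasi-likelihood test of edgeR, adjusted by Benjamini-Hochberg over all genes tested. With pioglitazone Fgfr2 was at 493, 508 and 431 CPM in EV cells and at 138, 141 and 139.7 CPM in PPFP cells, and differed by -1.76 ± 0.084 on the log2 scale (adjusted p = 7.89e-06). In bulk RNA fewer cells that express a gene and less RNA per cell cannot be told apart.

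Fgfr1, whose kinase is best known from mesenchymal and neural cells, had 88715 counts in all. It was at 356, 342 and 325 CPM in EV-Pio and at 173, 199 and 193 CPM in PPFP-Pio, without overlap between the groups. The log2 fold change was -0.86 ± 0.087 (adjusted p = 0.000219), which is a fold of under 2. With pioglitazone the values were 348, 341 and 328 CPM in EV cells and 121, 131 and 137 CPM in PPFP cells, and the log2 fold change was -1.37 ± 0.082 (adjusted p = 1.99e-05).

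Fgfr3 showed the largest drop between the lines among the receptor genes tested, in both comparisons. It was at 39.9, 44.5 and 39.9 CPM in EV-Pio and at 16.8, 15.3 and 14.9 CPM in PPFP-Pio, so that PPFP cells had 37.9% of the fitted EV level. The log2 fold change was -1.40 ± 0.097 (adjusted p = 3.50e-05). With pioglitazone it was at 42.9, 46.8 and 42.3 CPM in EV cells and at 14.5, 10.1 and 11.5 CPM in PPFP cells (-1.86 ± 0.13, adjusted p = 4.25e-05). The standard errors of Fgfr2 and Fgfr3 overlap in the comparison with pioglitazone, and the order of the genes was not tested.

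Fgfrl1, the receptor without a kinase domain, was at 53.3, 41.1 and 53.2 CPM in EV-Pio and at 26.8, 25.6 and 23.9 CPM in PPFP-Pio. Its log2 fold change was -0.95 ± 0.12 (adjusted p = 0.000668), again under a fold of 2, and no library of one group reached into the other. With pioglitazone it was at 53.5, 44.5 and 52.1 CPM in EV cells and 22.3, 20.5 and 20.6 CPM in PPFP cells (-1.23 ± 0.10, adjusted p = 7.34e-05).

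**Figure D1:**
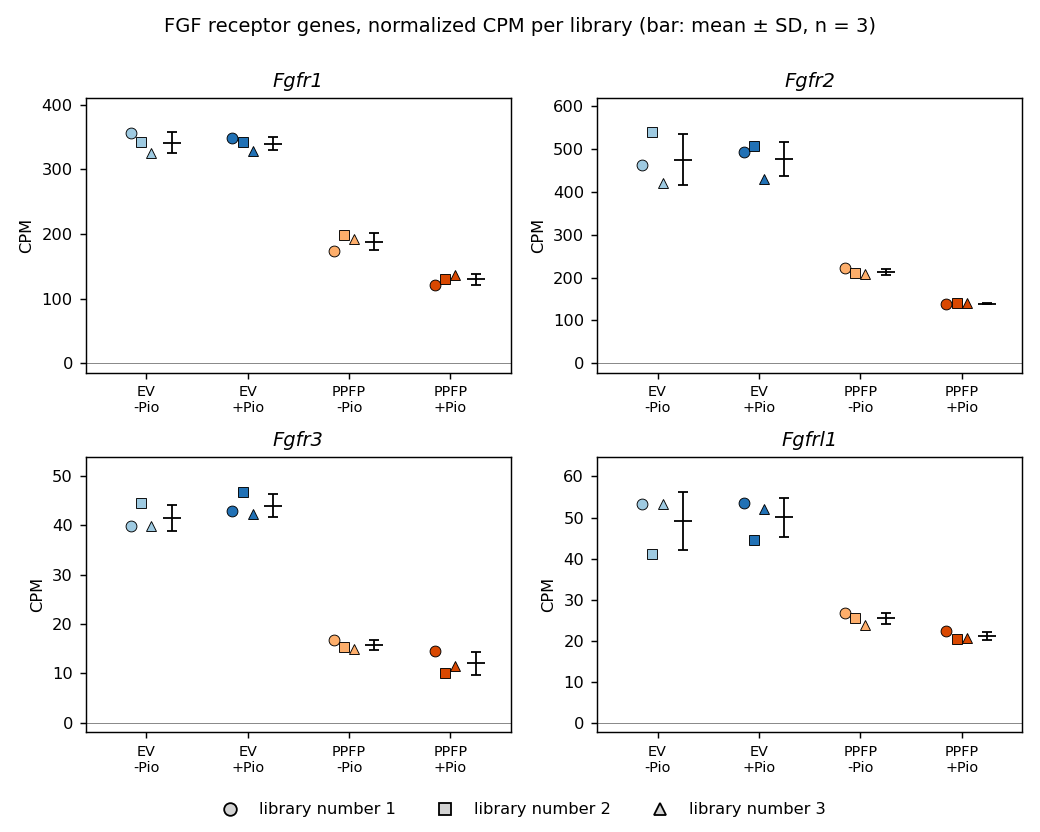
Normalized CPM (vertical axes, linear, each gene on its own scale) of Fgfr1, Fgfr2, Fgfr3 and Fgfrl1 in the 12 libraries by group, with symbols for library numbers 1 to 3 and a bar for the mean ± SD (n = 3). In all 4 genes every PPFP library lies below every EV library, and every PPFP+Pio library lies below every PPFP-Pio library. The share of all genes that separate in this way was not computed.

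Fgfr4 had 1 count in the whole series, in PPFP+Pio library 1, and 0 in the other 11 libraries. A count of 0 allows up to 3 counts, which is 0.0813 to 0.129 CPM in these libraries, and this limit covers counting error only. No comparison of Fgfr4 was made.

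Fgf1 differed between the lines in the other direction from the receptors. It was at 9.39, 10.9 and 6.93 CPM in EV-Pio and 23.7, 20.1 and 22.5 CPM in PPFP-Pio, and the lowest PPFP library was above the highest EV library. The log2 fold change was 1.28 ± 0.17 (adjusted p = 0.000835). With pioglitazone it was at 8.78, 11.9 and 6.57 CPM in EV cells and 22.4, 19.5 and 20.4 CPM in PPFP cells (1.21 ± 0.20, adjusted p = 0.00194). When the number 1 libraries were left out of all groups, the value with pioglitazone was 1.11 and the adjusted p 0.0551.

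Fgf21 had 5 counts in EV-Pio over the 3 libraries (3, 1 and 1) and 8 in EV+Pio (5, 1 and 2). In PPFP-Pio the counts were 0, 60 and 51, or 0, 2.24 and 2.18 CPM, and in PPFP+Pio they were 71, 599 and 672, or 2.69, 22.3 and 22.4 CPM. Libraries 2 and 3 of PPFP cells thus agreed within each treatment, whereas library 1 was low in both. Without pioglitazone Fgf21 was outside the filter on low counts, since library 1 of PPFP cells had no count. The ratio of summed counts between the lines, relative to the TMM-scaled library totals, was 25.7 (95% interval 10.7 to 80.6, for counting error only). Without any filter the log2 fold change was 4.59 (adjusted p = 0.0238). With library 1 of PPFP-Pio left out, the library at 0, the gene passed the filter through the other PPFP-Pio libraries, so that its value there of 5.22 is a description, as are the values of 4.35 to 5.27 with any one EV-Pio library left out (adjusted p = 0.0625 to 0.0877). With pioglitazone the log2 fold change between the lines was 7.54 ± 1.10 (adjusted p = 0.00109) and the ratio of summed counts was 195 (98.6 to 452). The gene passed the filter there only through the PPFP+Pio libraries, so that the filter favoured its call, and these values are a description. The PPFP+Pio libraries were above the EV+Pio libraries in 3 of 3 numbers, by 3.57, 7.41 and 7.05 on a log2 scale with 0.1 CPM added. In PPFP-Pio against EV-Pio the same differences were -1.01, 4.13 and 4.10.

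Fgf2, the other classical ligand of FGF receptors, had 24 counts in all. They were 1, 3 and 1 in EV-Pio, 2, 0 and 1 in EV+Pio, 0, 8 and 4 in PPFP-Pio and 1, 1 and 2 in PPFP+Pio, and the gene was tested in no comparison. The ratio of summed counts of PPFP-Pio to EV-Pio was 2.78 with an interval of 0.910 to 10.1, so a difference was not detectable at this depth.

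**Figure D2:**
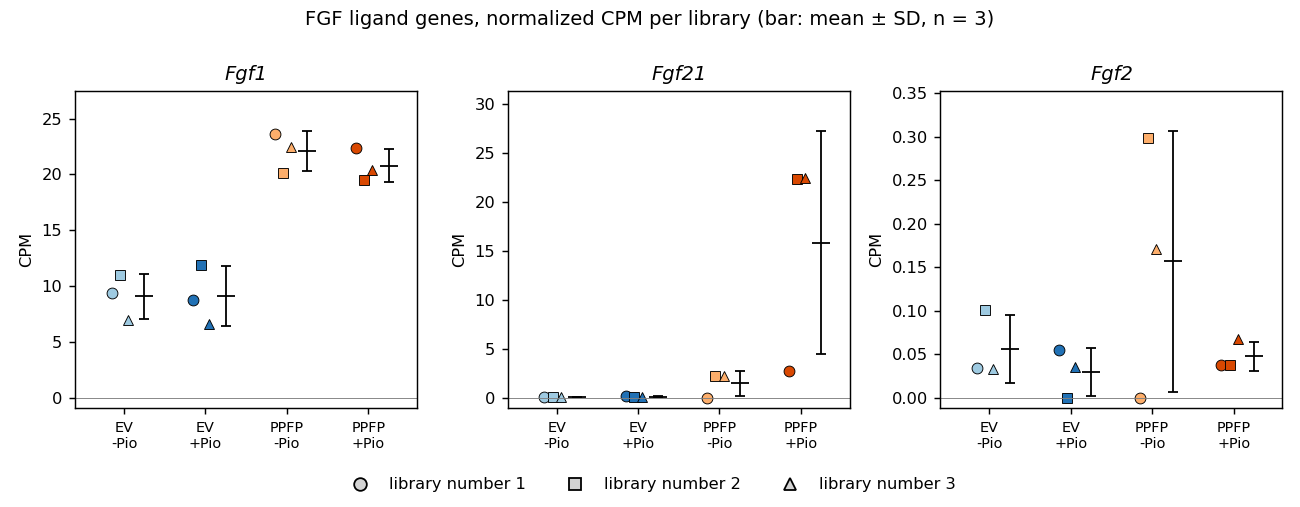
Normalized CPM (vertical axes, linear, each gene on its own scale) of Fgf1, Fgf21 and Fgf2 in the 12 libraries by group, with symbols for library numbers and a bar for the mean ± SD (n = 3). Fgf1 is above 19 CPM in every PPFP library and below 12 CPM in every EV library, Fgf21 reaches 22.3 and 22.4 CPM in libraries 2 and 3 of PPFP+Pio but 2.69 CPM in library 1, and Fgf2 stays below 0.3 CPM.

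Between the lines without pioglitazone 5 of the 8 members passed the filter on low counts, and 4 were called lower and 1 higher at an adjusted p under 0.05. Over all 10264 genes tested 23.1% were called lower and 22.0% higher. A fold of over 2 besides was seen in 2 lower members (Fgfr2 and Fgfr3) and 1 higher (Fgf1), where the background was 7.31% lower and 7.27% higher. The median log2 fold change of the members tested was -0.95, that of all genes 0.0016. With pioglitazone 6 of the 8 members were tested. Without Fgf21, which entered only through the PPFP+Pio libraries, 5 remain, of which 4 were called lower and 1 (Fgf1) higher, all with a fold of over 2. Of all 10291 genes 26.4% were called lower and 26.3% higher, and with a fold of over 2 it was 10.4% and 9.30%. The comparisons share no library with each other, but both set the same line against the same line. Within each library number the 4 receptor genes were lower and Fgf1 was higher in PPFP cells in 3 of 3 numbers, in both comparisons. The share of all genes with the same direction in 3 of 3 numbers was not computed.

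In PPFP cells Fgfr1 and Fgfr2 fell with pioglitazone. The comparison shares its libraries with those of the lines, so its values are given side by side with them and not as separate evidence. Fgfr2 went from 222, 210.1 and 208 CPM to 138, 141 and 139.7 CPM, and each treated library was below each untreated one. The log2 fold change was -0.60 ± 0.049 (adjusted p = 0.000992), and within the numbers it was -0.68, -0.58 and -0.57. Fgfr1 went from 173, 199 and 193 CPM to 121, 131 and 137 CPM, also without overlap, with a log2 fold change of -0.53 ± 0.081 (adjusted p = 0.00827). Both losses were of under 2-fold. Fgfr3 had a log2 fold change of -0.38 ± 0.14 (adjusted p = 0.131) and Fgfrl1 of -0.25 ± 0.07 (adjusted p = 0.0587). For both every treated library was below every untreated one, though for Fgfr3 by a small margin (14.5 against 14.9 CPM), and they were lower in 3 of 3 numbers, with log2 differences of -0.21, -0.60 and -0.37 for Fgfr3 and of -0.26, -0.32 and -0.21 for Fgfrl1. With the library number as a replicate block the adjusted p was 0.000294 for Fgfr3 and 0.000889 for Fgfrl1. Same-numbered libraries of PPFP cells deviated together (r = 0.743, 0.464 and 0.432). The different numbers 2 and 3 also correlated (0.350 and 0.535), so a pairing within numbers 2 and 3 was not shown. Without PPFP+Pio library 1 and without the block, Fgfr3 was at -0.53 (adjusted p = 0.0279). Over all alternatives Fgfr3 lay between -0.53 and -0.27 (adjusted p = 0.000294 to 0.322), and 12 of 15 left it uncalled. Fgf1 did not pass the test in either fit (-0.08 ± 0.087, adjusted p = 0.612 and 0.289 with the block).

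Fgf21 was higher with pioglitazone in each pair of PPFP libraries, and the summed counts rose from 111 to 1342, a ratio of 11.2 (95% counting interval 9.26 to 13.8). The differences within the numbers were 4.80, 3.26 and 3.30 on the log2 scale with 0.1 CPM added, the first against a library at 0 counts. Treated library 1, at 2.69 CPM, was above the highest untreated library at 2.24 CPM by a small margin. The gene needed the PPFP+Pio libraries, where it is high, to pass the filter, so that the fitted values and p values given here are a description. The log2 fold change was 3.46 ± 1.09 with an adjusted p of 0.0896, and with the replicate block it was 3.46 ± 0.15 with an adjusted p of 4.74e-15. Without PPFP+Pio library 1 and without the block it was 3.95 (adjusted p = 0.0265). The adjusted p over all alternatives lay between 4.74e-15 and 0.232.

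Of the 6 members tested in PPFP cells, 2 were thus called lower with pioglitazone and 0 higher, against 7.13% and 7.63% of all 10064 genes. None had a fold of over 2 at that threshold, for which the background was 1.31% lower and 1.11% higher. With the replicate block 4 members were called lower and 1 higher (Fgf21, which needed the PPFP+Pio libraries to pass the filter), and the background was then 23.9% lower and 27.7% higher. Each of the 4 receptor genes tested was among the lower ones.

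In EV cells none of the 5 members tested was called with pioglitazone. The log2 fold changes were -0.01 ± 0.072 for Fgfr1, 0.0049 ± 0.11 for Fgfr2, 0.085 ± 0.081 for Fgfr3, 0.022 ± 0.13 for Fgfrl1 and -0.0026 ± 0.25 for Fgf1. The background in EV cells was 0% of 10146 genes by edgeR's quasi-likelihood test, its exact test and DESeq2, with 16 genes at an unadjusted p under 0.05, none of them a member, and 1 gene called with the replicate block. Fgf21 had too few counts to be tested here, and the ratio of its summed counts was 1.48 (0.427 to 5.75).

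**Figure D3:**
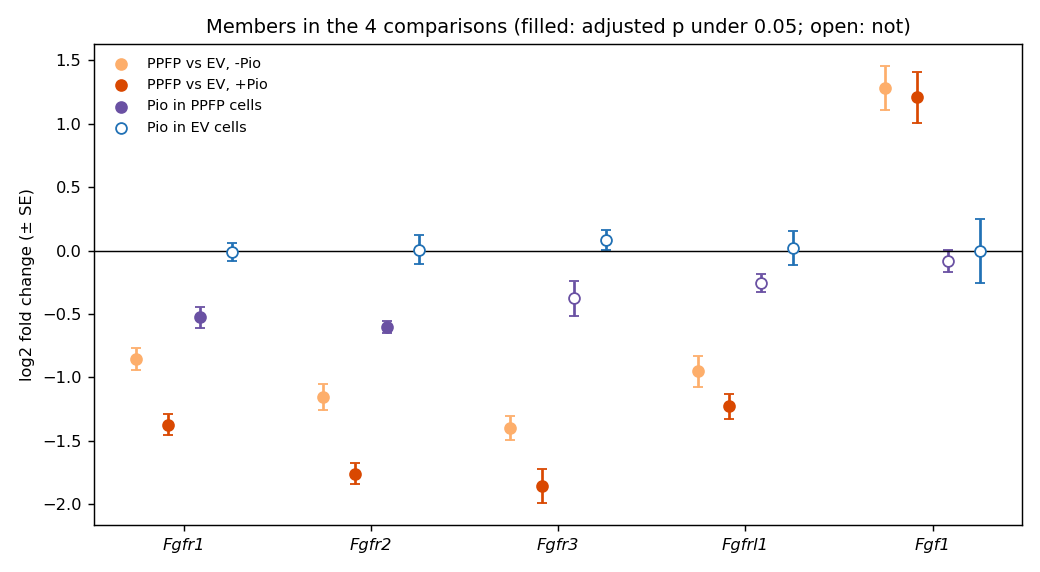
Log2 fold change (vertical axis, bars ± SE from edgeR) of the 5 members tested in all 4 comparisons, with filled points for an adjusted p under 0.05 and open points for the others. The 4 receptor genes lie below 0 and Fgf1 above 0 in both comparisons of the lines, and the points for pioglitazone in EV cells lie at 0.085 or closer to 0.

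The difference in pioglitazone response between the lines was tested as an interaction over the 12 libraries. It was -0.62 ± 0.13 on the log2 scale for Fgfr2 (adjusted p = 0.0329) and -0.53 ± 0.11 for Fgfr1 (adjusted p = 0.0235). Both fell with pioglitazone in PPFP cells (-0.60 for Fgfr2 and -0.53 for Fgfr1), whereas the values in EV cells were 0.0049 and -0.01. Over all 10482 genes 1.26% were called lower and 1.38% higher. These calls were close to the threshold without the block. The Fgfr2 call was lost without any one of 10 of the 12 libraries (all but EV-Pio library 2 and EV+Pio library 3; adjusted p up to 0.0899), and the Fgfr1 call without EV-Pio library 3, EV+Pio library 1, PPFP-Pio library 2 or 3, or PPFP+Pio library 1 or 2 (up to 0.0817). Without the number 1 libraries the adjusted p was 0.354 for Fgfr2 and 0.0994 for Fgfr1. With the replicate block within each line it was 1.55e-06 and 1.48e-06, and Fgfr3 (-0.48 ± 0.086, adjusted p = 0.000830) and Fgfrl1 (-0.29 ± 0.066, adjusted p = 0.00397) were also called. The background with the block was 17.1% lower and 17.2% higher. For Fgf21 the interaction was 2.91 ± 3.14 (adjusted p = 0.833, and 0.0813 with the block), and the EV response rests on 5 and 8 counts.

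The rest of the FGF pathway was described with 5 lists of 71 genes, of which 63 are in the table and 38 were tested between the lines. Without pioglitazone 9 were called higher and 15 lower in PPFP cells, and with it 9 and 16. Without Fgfbp1, which passed the filter only through the PPFP libraries, it was 8 and 15, and 8 and 16, of 37. This is to be read against the 22.0% higher and 23.1% lower of all genes without pioglitazone, and the 26.3% and 26.4% with it. The median log2 fold change of the 38 genes was -0.27 without pioglitazone (-0.31 without Fgfbp1), against 0.0016 over all genes. Pioglitazone in PPFP cells gave 6 called higher and 0 lower, with a median of 0.017 (all genes 0.012) and a background of 7.63% higher and 7.13% lower. In the fit with the replicate block 13 of the 38 were called higher and 10 lower, where the background was 27.7% higher and 23.9% lower. In EV cells none of 37 was called in either fit.

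The other ligands were largely unread. Of 13 secreted FGF genes in the table besides the members, 2 were tested (Fgf9 and Fgf22), and neither was called without pioglitazone. In PPFP+Pio against EV+Pio Fgf9 was called lower (-0.58 ± 0.19, adjusted p = 0.0348, and 0.0771 with the replicate block). Fgf10 was at 0 counts in every library and Fgf7 had 1 count in all, so neither of these ligands of epithelial Fgfr2 was detectable at this depth. Among the 4 intracellular FGF homologous factors, which do not act through the receptors, Fgf11 was tested and was lower in PPFP+Pio than in EV+Pio (-1.23 ± 0.25, adjusted p = 0.00543).

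Of 15 co-receptor, FGF-binding and heparan sulfate genes tested, 3 were called higher and 8 lower in PPFP-Pio (22.0% and 23.1% of all genes), and without Fgfbp1, whose call the filter favoured, 2 and 8 of 14. Fgfbp1, which encodes a secreted carrier that frees FGFs from the matrix, had counts of 5, 3 and 8 in EV-Pio and stood at 136, 88.2 and 86.8 CPM in PPFP-Pio. EV cells were thus near the floor in every library, and the gene passed the filter only through the PPFP libraries. The log2 fold change of 9.14 ± 0.33 and the ratio of summed counts of 585 (360 to 1023) are therefore a description. In PPFP+Pio Fgfbp1 was at 231, 144 and 132 CPM, higher within each number by 0.76, 0.71 and 0.60, with a log2 fold change of 0.71 ± 0.26 (adjusted p = 0.133, and 2.76e-13 with the block). Library 1 of PPFP cells was the highest for Fgfbp1 and the lowest for Fgf21. Sulf2, an extracellular enzyme that removes sulfate from heparan sulfate, fell from 1458 ± 157 to 483 ± 16.1 CPM (-1.59 ± 0.10, adjusted p = 2.51e-05). Sdc4, Sdc2, Ndst1, Ndst2, Ext2, Hs6st1 and Flrt3 fell as well, by 0.34 to 0.98 on the log2 scale, and Gpc4 and Ext1 rose. The Flrt3 call (adjusted p = 0.0477) was lost with the replicate block (0.102). The list thus moved in both directions. Gpc4 and Ext1 were also called higher with pioglitazone in PPFP cells (0.31 and 0.29). The replicate block gave 5 of the 15 called higher there and 4 lower (Sdc1, Sdc2, Sdc4 and Ndst1), where the shares over all genes were 27.7% and 23.9%. The hormone co-receptor gene Kl had 3 counts in all, and Klb was not analysed here.

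Of 9 genes for adaptors and first signalling steps, 4 rose and 2 fell in PPFP-Pio (22.0% and 23.1% of all genes). Shc1, an adaptor between receptor tyrosine kinases and Grb2, was at 309, 215 and 245 CPM in EV-Pio and 697, 787 and 752 CPM in PPFP-Pio (1.54 ± 0.14, adjusted p = 0.000133). Plcg1, a phospholipase that binds the activated receptors, went the other way, from 337, 388 and 289 CPM to 111, 132 and 128 CPM (-1.45 ± 0.13, adjusted p = 0.000113). Frs2, the main FGF receptor docking protein, rose by less (0.47, adjusted p = 0.00147), as did Grb2 and Gab1. Sos1 fell (-0.24, adjusted p = 0.0295, and 0.0964 with the replicate block). None of the 9 was called with pioglitazone in PPFP cells. With the replicate block 4 were called lower, Gab1 (-0.42 ± 0.048, adjusted p = 1.07e-07), Plcg1 (-0.25 ± 0.039, adjusted p = 1.06e-05), Shc1 and Frs3, and 3 higher, Ptpn11 (0.19 ± 0.034, adjusted p = 6.72e-05), Frs2 and Grb2, against 23.9% lower and 27.7% higher over all genes.

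The feedback inhibitors and ETS factors are genes that FGF signalling through MAPK is known to induce. Of 11 tested, 2 rose and 5 fell in PPFP-Pio, against 22.0% and 23.1% of all genes. Spry1, a Sprouty inhibitor of receptor tyrosine kinase signalling, rose from 13.6, 16.7 and 13.2 CPM to 116, 91.6 and 94.9 CPM (2.80 ± 0.14, adjusted p = 9.60e-06), and the ETS factor Etv5 from 6.21, 9.63 and 6.36 CPM to 15.6, 14.4 and 15.2 CPM (1.03 ± 0.19, adjusted p = 0.00315). Dusp5, a phosphatase of ERK, fell from 19.5 ± 1.62 to 9.64 ± 1.14 CPM (-1.02 ± 0.13, adjusted p = 0.000630), and Spry2, Spred1, Spred2 and Dusp4 fell by 0.53 to 0.83. With pioglitazone in PPFP cells 4 of the 11 rose and none fell at the threshold (background 7.63% higher and 7.13% lower). Under the replicate block (background 27.7% higher and 23.9% lower) 5 were called higher, with Dusp6 added, and 2 lower, Spred2 (-0.21 ± 0.067, adjusted p = 0.0106) and Spred3 (-0.51 ± 0.12, adjusted p = 0.00101). Etv4 went from 9.31, 8.21 and 8.18 CPM to 17.4, 17.5 and 19.9 CPM (1.10 ± 0.10, adjusted p = 0.00140), with no overlap. Etv5 rose to 24.4, 33.2 and 31.1 CPM (0.99 ± 0.13, adjusted p = 0.00492, and 0.0915 with all 12 libraries fitted together), and Spry4 had a log2 fold change of 0.77 ± 0.098 (adjusted p = 0.00435). Dusp5 rose by 0.55 ± 0.13 (adjusted p = 0.0360), a call that was lost without any one of PPFP-Pio libraries 1, 2 and 3 and PPFP+Pio libraries 2 and 3 (adjusted p up to 0.139). The interaction was called for Etv4 among these genes (1.25 ± 0.20, adjusted p = 0.00664). Under the block it was called higher for 5 of the 11 and lower for 2 (17.2% and 17.1% of all genes).

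**Figure D4:**
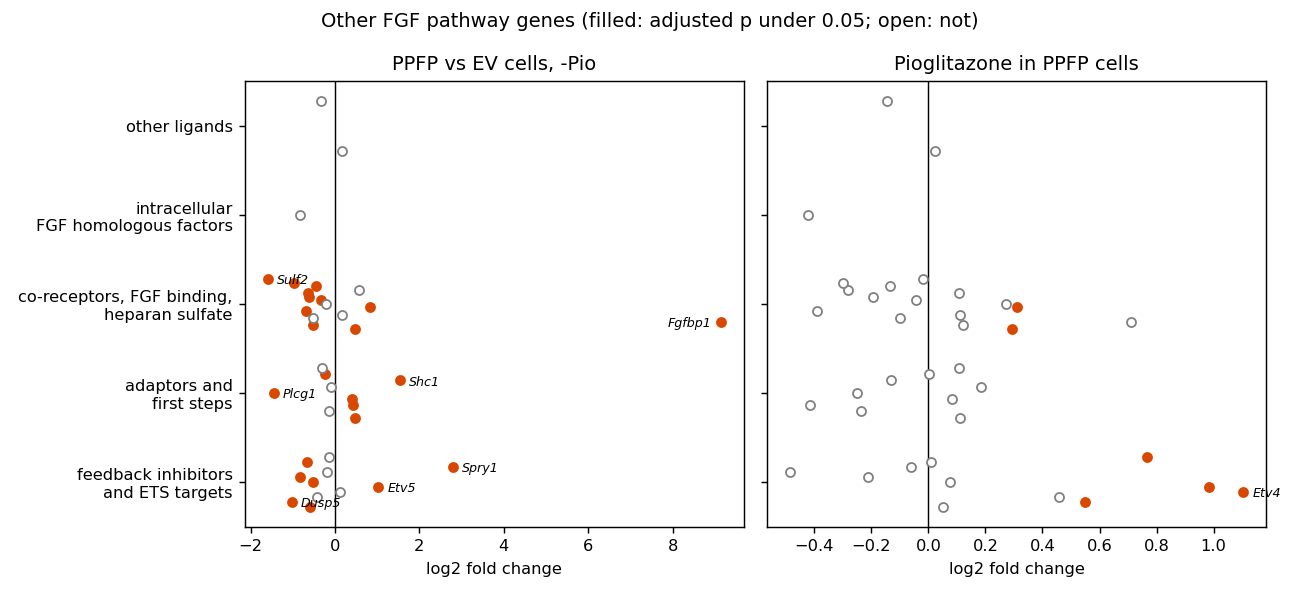
Log2 fold change (horizontal axes, each panel on its own scale) of the pathway genes tested, by list, for PPFP-Pio against EV-Pio (left) and for pioglitazone in PPFP cells (right), with filled points for an adjusted p under 0.05 and names for filled points past a fold of 2. On the left Fgfbp1 lies far to the right at 9.14 and the lists spread to both sides of 0, and on the right the 6 points filled in the fit without the replicate block lie above 0.

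The genes with the profile most like that of each member were found from the root mean square difference of centred log2(CPM + 0.1) over the 12 libraries, among 9637 genes. For Fgfr1 they were Nipsnap1 (0.061), Sod3 (0.064) and Camk2n1 (0.073). For Fgfr2 they were Efemp2 (0.098), Smad7 (0.109) and Nacc2 (0.111), and for Fgfr3 Phf15 (0.115), Rgcc (0.153) and again Smad7 (0.160). For Fgfrl1 they were Pdlim1 (0.075), Prosapip1 (0.096) and Txnrd3 (0.097). Fgf1 was nearest to Hsd11b1 (0.097), Fhl1 (0.141) and Gng12 (0.151). Fgf21 had no near match, and the least distant genes, Car4, Ptp4a3 and Krt72, differed from it by 1.12 to 1.25. These distances are descriptions over libraries that fall into the same 4 groups.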

How the data were processed

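RNA-seq was performed on 12 libraries in 4 groups. Per the labels and the methods of the study, the authors aligned reads to rn4 with TopHat2 2.0.11 and counted them per gene with HTSeq 0.6.1p1 in intersection-strict mode; the annotation and the use of strand are not given in the sources used here. The deposited table holds raw counts by gene symbol. Totals were 23724703 to 35240176 per library. Columns were assigned to samples by name.

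Genes were tested with edgeR 4.0.16 in R 4.3.3 (filterByExpr, TMM, quasi-likelihood test, Benjamini-Hochberg adjustment) on the 6 libraries of each comparison, and on all 12 for the interaction. A gene was called at an adjusted p under 0.05. SE is the log2 fold change divided by the root of F. CPM used TMM factors over 12 libraries. The fits without the block were tested on simulated counts for PPFP-Pio against EV-Pio and for the interaction. Those counts were drawn independently for each library, without an effect of library number, and the fit with the replicate block was not tested in this way. Intervals are exact 95% limits of a ratio of Poisson counts. Figures used Python 3.11.15 and matplotlib 3.10.9.

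Named were the 8 members, Fgf7 and Fgf10, Pparg and Pax8, pathway genes called with a fold above 2 (at most 6 per list) in PPFP-Pio against EV-Pio or with pioglitazone in PPFP cells, and the 3 genes nearest to each member; other called genes were named after their values were seen. The members and lists were chosen with earlier results of these data known. Same-numbered libraries deviated together within a line (r = 0.743, 0.464 and 0.432 in PPFP cells, and 0.530, 0.729 and 0.774 in EV cells), so the number was taken to pair them there; different numbers 2 and 3 of PPFP cells also correlated, at 0.350 and 0.535, so the values mainly set number 1 apart in that line. Alternatives were DESeq2 1.42.0, edgeR's exact test, RLE size factors, library size alone, no filter, all 12 libraries fitted together, at least 10 counts in every library, the replicate block and each library left out. Leaving out the number 1 libraries was chosen after Fgf21 and the principal components were seen. The PPFP ChIP-seq peak lists, in rn4 positions without gene names, were not used here.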

Additional observations from a re-analysis of the deposited data

Results flagged for a closer look

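The response to pioglitazone differed between the lines by the interaction test for Fgfr1, by -0.53 (PPFP cells minus EV cells, log2, adjusted p = 0.0235), and for Fgfr2, by -0.62 (adjusted p = 0.0329), in edgeR's quasi-likelihood test. In PPFP cells both fell in 3 of 3 library numbers, and in EV cells Fgfr1 fell in 2 of 3 and Fgfr2 in 1 of 3. The Fgfr1 call was lost under 7 of 19 alternatives (adjusted p between 1.48e-06 and 0.0994 over all of them) and the Fgfr2 call under 11 of 19 (1.55e-06 to 0.354).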

How the results depend on the processing

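Over the members and named genes 637 of the values obtained under alternatives kept their direction and their side of the threshold, 24 passed it newly, 26 no longer passed it and 23 changed sign. In the comparisons of the lines 5 to 6 members were called under the alternatives, Fgf21 included, which passed the filter through PPFP libraries alone. Without Fgf21 they were 5 without pioglitazone under every alternative run, and 4 to 5 with it (4 without the number 1 libraries, where the Fgf1 call was lost). With the replicate block 5 members, Fgf21 included, were called with pioglitazone in PPFP cells in place of 2. Over all genes the block called 23.9% lower and 27.7% higher, in place of 7.13% and 7.63%. With the number 1 libraries left out 5 members were called. The count of members ranged from 2 to 4 when each library was left out, with 4 without PPFP+Pio library 1. Shares over all genes were not computed for the fits with libraries left out. For the interaction 4 members were called with the replicate block, where 17.1% of all genes were called lower and 17.2% higher. It was 0 members without the number 1 libraries, and 0 to 2 as single libraries were left out. Leaving out the number 1 libraries lowers the number of libraries and also removes those that stood apart in PPFP cells. The cause was not tested. Between the lines same-numbered libraries did not deviate together (r = -0.249, 0.316 and -0.320 without pioglitazone, and -0.246, 0.237 and -0.378 with it), and the block there left 5 and 6 members called (the latter with Fgf21). Of the pathway genes it left 22 of the 24 calls without pioglitazone (not Flrt3, adjusted p = 0.102, and Sos1, 0.0964), added Sdc1 (0.57, 0.0411), and left 21 of the 25 with it (not Fgf9, 0.0771, Sos1, Sos2 and Spred1).

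The sign changes were in values that did not pass the test. With pioglitazone in EV cells, leaving out each library gave Fgfr1 -0.0303 to 0.0186, Fgfr2 -0.0597 to 0.0986, Fgfrl1 -0.0984 to 0.103 and Fgf1 -0.238 to 0.174 (log2, lowest to highest). Without the number 1 libraries Fgfr1 was at 0.0024, Fgfr2 at -0.037 and Fgf1 at 0.042, and Fgf1 was at 0.00085 with library size alone and 0.00049 with all 12 libraries in one fit. Leaving out each library also gave a range of -0.0292 to 0.253 for Etv4 in PPFP-Pio against EV-Pio, of -0.196 to 0.0355 for Spry1 and -0.0214 to 0.161 for Pparg with pioglitazone in PPFP cells, and of -0.273 to 0.149 for the Fgf1 interaction. Scaling by library size alone moved the median of all genes to -0.080 and -0.12 in the comparisons of the lines, and the direction of each called member was the same under it. The alternatives for peaks (a fold enrichment of at least 10 and a shorter distance) were not run. Fgf2, Fgfr4 and, in EV cells, Fgf21 are limited by their counts.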
